A study of Arabidopsis thaliana with 4 samples.

Results

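Transcripts of 10 Arabidopsis thaliana genes of iron storage and superoxide removal were followed in seedlings that overexpress CLPD. They are the ferritin genes FER1, FER3 and FER4, the superoxide dismutase (SOD) genes FSD1, CSD1, CSD2, CSD3 and MSD1, the copper chaperone gene CCS and the copper regulator gene SPL7. The 10 genes were chosen by locus code and by function, and all 10 are among the 31346 genes of the deposited table. The 2 groups were ClpD-OE, labelled as ClpD-overexpression in WT, and wild type (WT), with 2 libraries each of poly(A)-selected RNA from whole seedlings 6 d old. CLPD encodes a chaperone of the chloroplast Clp protease and was overexpressed constitutively in a WT background. By their labels both ClpD-OE libraries are of 1 line, #5, and effects of CLPD and of anything else peculiar to line #5 cannot be told apart. The labels do not state that replicates were separate cultures, so the spread behind each p-value may be technical.

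Total counts lay between 22764333 and 23294451 in ClpD-OE and between 20800842 and 21896988 in WT. CLPD itself averaged 1770 ± 143 normalized CPM in ClpD-OE and 149 ± 2.80 in WT (counts scaled to library size by the TMM method, SD, n = 2 each), 11.9-fold higher (edgeR adjusted p = 0.00283). Some of the shoot marker transcripts differed with the groups. The 9 shoot markers summed to 16799.7 and 17404 CPM in ClpD-OE, against 30348 and 28313 in WT. LHCB3, RBCS3B, CA1 and GLDP1 together made up most of each sum, and all of them were called lower. STM, GL1 and FAMA (log2 fold changes -0.21, -0.59 and -0.32) were not called, nor were AS1 and SPCH (0.043 and 0.23). The 9 root markers summed to 1286 and 1324 CPM in ClpD-OE, against 1250.1 and 1369 in WT. Most of each sum was PYK10, with 1254 and 1285 CPM in ClpD-OE, against 1221 and 1338 in WT. By edgeR 5 of the 9 were tested and 0 called, with 4 log2 fold changes above 0 and 1 below. The largest were those of CASP1 and WER, at 1.17 and 1.24 (edgeR adjusted p = 0.165 and 0.126), on low counts. CASP1 had 26 and 48 counts in ClpD-OE, against 11 and 15 in WT, and WER 20 and 22, against 7 and 7. Of the root markers 5 stayed under 1 CPM in every library, WER among them. The root hair genes COBL9, RHD6 and EXP7, also among the 5, had at most 4 counts. The 5 seed storage markers summed to 0.280 and 0.202 CPM in ClpD-OE, against 0.955 and 0.678 in WT. In RNA of whole seedlings, fewer cells of a type and less RNA per cell cannot be told apart, and the part of these shifts in the results below was not tested.

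Ferritins are plastid proteins that store iron in a hollow shell, and FER4 is also found in mitochondria. SODs turn superoxide into hydrogen peroxide and differ in metal and place, with iron in the FSD enzymes of plastids, copper and zinc in CSD1 of the cytosol, CSD2 of chloroplasts and CSD3 of peroxisomes, and manganese in MSD1 of mitochondria. CCS loads copper into the CSD enzymes. When copper is scarce, the transcription factor SPL7 activates FSD1 and the genes of the microRNA miR398, which guides the cleavage of CSD1, CSD2 and CCS mRNAs. The iron enzyme thus takes the place of the copper enzyme in chloroplasts.

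The sequences by which miR398 recognises its targets are shown first, because CSD1, CSD2 and CCS are its textbook targets. They were read from the RefSeq genome and annotation of assembly TAIR10.1, in DNA letters. Capitals in the miRNAs mark the seed, bases 2 to 8 from the 5′ end, which is the same in the 3 mature forms.
ath-miR398a-3p: tGTGTTCTcaggtcacccctt
ath-miR398b-3p: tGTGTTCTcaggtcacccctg
ath-miR398c-3p: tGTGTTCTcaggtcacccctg
They lie at chr2:1041012-1041032, chr5:4691107-4691127 and chr5:4694778-4694798, all on the plus strand, and the b and c forms are identical.

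Each gene's longest annotated mRNA was searched for its best match to these miRNAs, at a penalty of 1 for a mismatch, 0.5 for a G:U pair and 1 for an unpaired base, of which at most 1 was allowed. Capitals in the sites mark bases that pair with the miRNA by Watson-Crick rules.
CSD1 site, with miR398a: AAGGGGTttCCTGAGAtCACA
CSD2 site, with miR398b and c: tgcGGGTGACCTGgGAAACA
CCS site, with miR398a: AttGGGaGACCTGgGAACACt
COX5B-1 site, with miR398a: AAGGtGTGACCTGAGAAtCACA
The CSD1 site is in the 5′ UTR on the plus strand, spans an exon junction between positions 2827177 and 2827685 of chromosome 1, and has a penalty of 3. Over 31346 nuclear loci with an annotated mRNA, pseudogenes included, 4 had a match at that penalty or lower, which is 0.0128%. The CSD2 site is coding sequence at chr2:12015572-12015591 on the plus strand with a penalty of 3.5, reached by 0.0542% of loci. The CCS site is coding sequence at chr1:4267521-4267541 on the minus strand with a penalty of 4.5, reached by 1.28% of loci. COX5B-1 (AT3G15640), a subunit gene of mitochondrial cytochrome c oxidase and another known target, has a site in its 5′ UTR at chr3:5299204-5299225 on the plus strand with a penalty of 2. The best match of FSD1 had a penalty of 5.5, which 11.9% of loci reach, and that of CSD3 6.5, which 55.8% reach. A match is a description of letters and not evidence of cleavage in these samples, and miR398 itself was not analysed here.

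Of the 10 genes, 1 was called different between ClpD-OE and WT, CSD2, which was higher. Called means an edgeR quasi-likelihood p under 0.05 after Benjamini-Hochberg adjustment over all 18940 tested genes, and the background share of called genes was 8.19%, with 4.29% higher and 3.91% lower. All 10 passed the filter on low counts. The log2 fold change was above 0 for 6 and below 0 for 4, with a median of 0.23, against 0.00111 over all tested genes. The values of the groups did not overlap for 7 of the 10, and for 59.9% of all tested genes. DESeq2 called 4 of the 10, against 11.3% of the same 18940 genes. FER1, FER3 and CSD2, which are 3 of the 10, have an adjusted p under 0.05 in the authors' deposited table, against 6.55% of all genes. That share is over all 31346 genes, including those that failed the filter on low counts, so it is not like the shares of tested genes. Scaling to library totals in place of TMM moved the median of all tested genes by 0.22 on the log2 scale, and fold changes are given on the TMM scale. With library totals 2699 genes were called higher and 577 lower, against 812 higher and 740 lower with TMM, and of the 10 genes 5 were called higher and 0 lower.

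**Figure D1:**
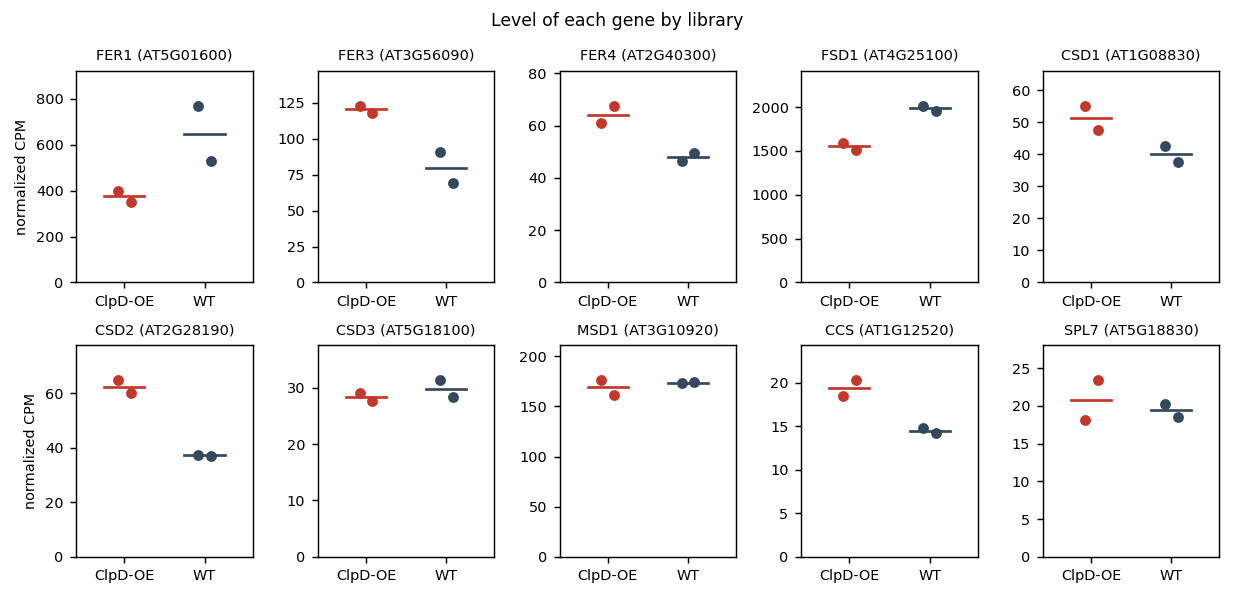
Normalized CPM (counts scaled by TMM, linear axes from 0) of each of the 10 genes, with 1 point per library and a bar at the mean of each group, ClpD-OE on the left and WT on the right. The points of CSD2 lie at 64.7 and 60.01 CPM in ClpD-OE and at 37.4 and 36.8 CPM in WT, while those of CSD3, MSD1 and SPL7 overlap between groups.

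CSD2 (AT2G28190, chr2:12014412-12016569, plus strand, TAIR10.1), the gene of the chloroplast Cu/Zn SOD, had 64.7 and 60.01 normalized CPM in ClpD-OE, against 37.4 and 36.8 in WT. Both ClpD-OE libraries were above both WT libraries, and the WT libraries lay close together. It was 1.68-fold higher in ClpD-OE (log2 0.75, SE 0.0866), with an adjusted p of 0.0218 by edgeR and 9.08e-05 by DESeq2. The authors' deposited table gives a log2 fold change of 0.97, which matches mean FPKM and is not on the TMM scale. The deposited adjusted p was 1.05e-04, by a test that the headers do not name. Without WT replicate 1 or 2 it was still called. Leaving out ClpD-OE replicate 1 gave 0.69 (edgeR adjusted p = 0.170) and leaving out ClpD-OE replicate 2 gave 0.80 (edgeR adjusted p = 0.190). Those edgeR fits called 0 of all genes, with 3564 and 3021 at an unadjusted p under 0.05.

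The window of 250 bases before the annotated start of CSD2 (chr2:12014162-12014411, plus strand) is printed because it is the called gene.
CSD2 upstream: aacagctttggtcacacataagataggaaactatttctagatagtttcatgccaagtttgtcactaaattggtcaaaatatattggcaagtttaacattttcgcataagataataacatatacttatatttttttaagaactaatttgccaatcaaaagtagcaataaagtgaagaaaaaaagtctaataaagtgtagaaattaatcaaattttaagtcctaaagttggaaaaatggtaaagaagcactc
It holds none of 4 motifs searched on both strands, GTAC (the core of the SPL7 element), CACGTG (the G-box), CACGAG and GNATATNC, and this says only that these letters are not in this window. GTAC occurred in 34.3% of the windows of 27443 coding genes, and in those of FSD1, CSD1, CSD3 and CCS among the 9 of these genes whose windows were described. CACGTG occurred in 6.49% of all windows and in that of FER3, while CACGAG (4.16% of all windows) and GNATATNC (5.46%) were in 0 of the 9.

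CSD1 (AT1G08830, chr1:2827060-2829315, plus strand), the cytosolic Cu/Zn SOD gene, had 55.1 and 47.7 CPM in ClpD-OE, against 42.5 and 37.6 in WT. The groups did not overlap, with both ClpD-OE libraries above both WT libraries. Its log2 fold change of 0.36 (SE 0.116) did not pass (edgeR adjusted p = 0.122). CSD1 shares 211 bases with AT1G08840 on the other strand, which had 237 and 221 counts in ClpD-OE, against 122 and 139 in WT. The sources used here do not say whether strand was used in counting, so reads of overlapping genes on opposite strands cannot be told apart.

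CCS (AT1G12520, chr1:4267074-4268982, minus strand), whose product loads copper into the CSD enzymes, had 18.5 and 20.3 CPM in ClpD-OE, against 14.8 and 14.2 in WT. Its groups did not overlap either. The log2 fold change of 0.42 (SE 0.113) did not pass (edgeR adjusted p = 0.0867). COX5B-1, the other gene with a site shown above, had 58.8 and 57.3 CPM in ClpD-OE, against 49.9 and 51.1 in WT (log2 fold change 0.20, SE 0.0793, edgeR adjusted p = 0.175). The 4 genes with the printed sites had log2 fold changes above 0, as did 50.1% of tested genes. Of the 4, 1 was called, against 8.19% of all tested genes. These genes were picked as known targets, and the fold changes of other loci with matches at such penalties were not compared.

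CSD3 (AT5G18100, chr5:5987187-5988885, plus strand), the peroxisomal Cu/Zn SOD gene, had 29.1 and 27.7 CPM in ClpD-OE, against 31.3 and 28.3 in WT. The groups overlapped. The log2 fold change of -0.0698 (SE 0.103, edgeR adjusted p = 0.705) became 0.16 with library totals and 0.00426 without WT replicate 1. CSD3 overlaps NCBP by 142 bases and the noncoding gene AT5G02875 by 405 bases, both on the other strand.

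The coding sequences of CSD1, CSD2 and CSD3 were 65.8% to 67.8% identical in pairs, and their longest shared run was 17 bases. Within a library, the ratio of CSD2 to CSD1 FPKM was 0.974 and 1.04 in ClpD-OE, against 0.731 and 0.810 in WT. The ratio of CSD2 to CSD3 FPKM was 1.495 and 1.46 in ClpD-OE, against 0.756 and 0.867 in WT. CSD2 was thus the least abundant of the 3 Cu/Zn SOD transcripts in both WT libraries, and lay above CSD3 in both ClpD-OE libraries. These ratios do not depend on the scaling of libraries. With 2 libraries against 2, an exact two-sided permutation test of a ratio cannot give a p below 0.333, so the ratios are given as values.

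FSD1 (AT4G25100, chr4:12884300-12887011, minus strand), the main iron SOD gene, had 1593 and 1510.0 CPM in ClpD-OE, against 2014 and 1956 in WT. Both ClpD-OE libraries were below both WT libraries. Its log2 fold change of -0.36 (SE 0.0747) missed the threshold with edgeR (adjusted p = 0.0522) and passed it with DESeq2 (adjusted p = 0.0439). FSD1 passed without WT replicate 2 (edgeR adjusted p = 0.0337), and with library totals its value was -0.13 (adjusted p = 0.223). The authors' deposited table gives -0.13, on the FPKM scale, and an adjusted p of 0.0506 by an unnamed test. In mean FPKM over the 4 libraries FSD1 ranked 45 among all genes, and it took 0.171% and 0.164% of all counts in ClpD-OE, against 0.183% and 0.184% in WT.

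Set against the chloroplast copper enzyme, FSD1 transcripts were 21.8 and 22.3 times as abundant as CSD2 transcripts in ClpD-OE, against 47.7 and 47.2 times in WT, by FPKM within each library. The spread between replicates of this ratio was 0.334 in ClpD-OE and 0.372 in WT (SD, n = 2 each). The ratio in both ClpD-OE libraries was thus under that in both WT libraries by far more than the replicates differed, and a ratio shows unequal change without saying which of the 2 genes moved.

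FSD2 and FSD3, iron SOD genes of the plastid nucleoids, are not among the 10. FSD2 (AT5G51100) had 35.4 and 37.6 CPM in ClpD-OE, against 22.96 and 31.0 in WT (log2 fold change 0.44, SE 0.160, edgeR adjusted p = 0.156). FSD3 (AT5G23310) had 42.7 and 41.0 CPM in ClpD-OE, against 28.2 and 33.4 in WT (log2 fold change 0.44, SE 0.115, edgeR adjusted p = 0.0793). Neither passed, and both had a sign opposite to that of FSD1. Of 6 relatives of the SODs and ferritins, edgeR called 0 and DESeq2 called 0, and 3 had an unadjusted edgeR p under 0.05, as did 28.2% of all tested genes. Without WT replicate 2 edgeR called 3 of the 6 (14.6% of all genes in that fit), FSD2 and FSD3 among them at log2 fold changes of 0.67 and 0.57. Without WT replicate 1 it called 0 of the 6 (2.77% of all genes), with FSD2 at 0.24 and FSD3 at 0.32.

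MSD1 (AT3G10920, chr3:3417940-3419892, plus strand), the mitochondrial manganese SOD gene, had 176 and 162 CPM in ClpD-OE, against 173 and 174 in WT. The WT libraries lay between the ClpD-OE libraries. The log2 fold change of -0.0380 (SE 0.0834, edgeR adjusted p = 0.805) was 0.19 with library totals and 0.0214 without ClpD-OE replicate 2. SPL7 (AT5G18830, chr5:6275895-6280681, plus strand), the copper regulator gene, had 18.1 and 23.4 CPM in ClpD-OE, against 20.3 and 18.5 in WT. Its groups overlapped (log2 fold change 0.0983, SE 0.156, edgeR adjusted p = 0.726). Without ClpD-OE replicate 2 the value was -0.0980.

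Summed over the 7 SOD genes, FPKM values were 1859 and 1777 in ClpD-OE, against 1836 and 1862 in WT. The sums overlapped between groups on the FPKM scale, which is not the TMM scale of the fold changes. TMM factors were 1.07 and 1.09 in ClpD-OE, against 0.907 and 0.943 in WT. Dividing by them lowers ClpD-OE relative to WT, so the overlap cannot be carried over to the TMM scale. FSD1 made up 77.3% and 77.7% of the sum in ClpD-OE, against 83.5% and 83.2% in WT, and CSD2 made up 3.54% and 3.48% in ClpD-OE, against 1.75% and 1.76% in WT.

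**Figure D2:**
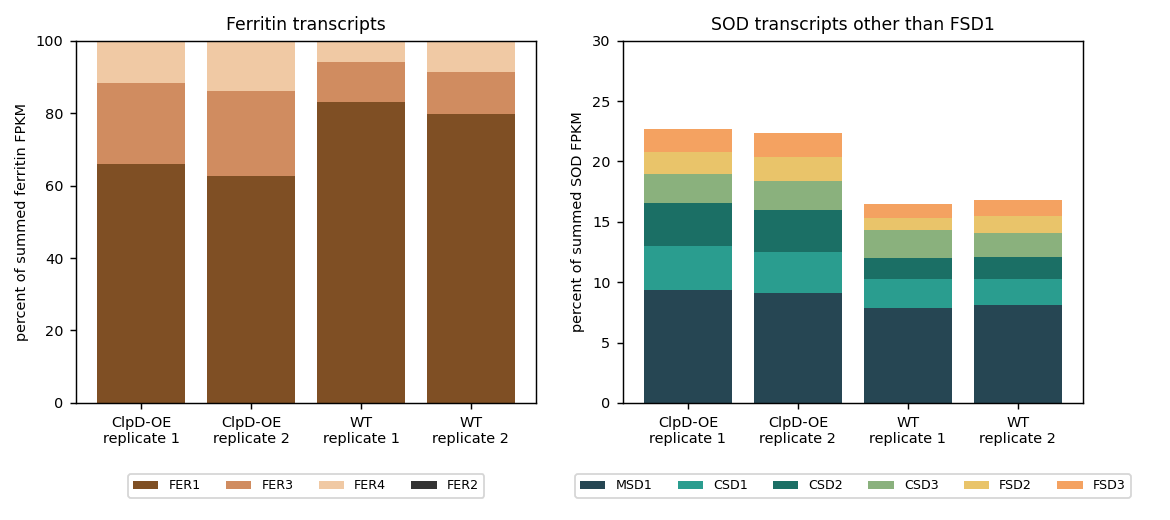
Left, the percent of the summed FPKM of FER1, FER2, FER3 and FER4 that each gene took in each library, and right, the percent of the summed SOD FPKM taken by each SOD gene other than FSD1, with stacked bars from 0 and the ClpD-OE libraries left of the WT libraries. FER1 takes 65.9% and 62.7% in ClpD-OE against 83.2% and 79.7% in WT, and CSD2 takes 3.54% and 3.48% of SOD transcripts in ClpD-OE against 1.75% and 1.76% in WT.

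The log2 fold changes of the ferritin genes did not share a sign. FER1 (AT5G01600, chr5:227953-230051, minus strand), the most abundant ferritin transcript of these seedlings by FPKM, had 400.3 and 350.4 CPM in ClpD-OE, against 769 and 529 in WT. Both ClpD-OE libraries were below both WT libraries, and the WT libraries differed from each other by more than the ClpD-OE libraries did. A log2 fold change of -0.79 (SE 0.192) did not pass with edgeR (adjusted p = 0.0698) and passed with DESeq2 (adjusted p = 0.00347). The authors' deposited table gives -0.56, on the FPKM scale, with an adjusted p of 0.00400 by an unnamed test. Without WT replicate 1 the value was -0.50 (edgeR adjusted p = 0.0903), and without WT replicate 2 it was -1.04 and was called (edgeR adjusted p = 0.0102). FER1 shares 1334 bases with the noncoding gene AT5G01595 on the other strand, so that without strand their reads cannot be told apart.

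FER3 (AT3G56090, chr3:20813904-20816035, minus strand) had 123 and 118 CPM in ClpD-OE, against 90.8 and 69.0 in WT. The groups did not overlap. For FER3 the log2 fold change of 0.59 (SE 0.144) did not pass with edgeR (adjusted p = 0.0702) and passed with DESeq2 (adjusted p = 0.0197). The authors' deposited table gives 0.82, on the FPKM scale, and an adjusted p of 0.0227 by an unnamed test. Without WT replicate 1 the edgeR value was 0.80 and was called (adjusted p = 0.0356), and without WT replicate 2 it was 0.41.

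FER4 (AT2G40300, chr2:16831109-16833294, minus strand) had 60.8 and 67.5 CPM in ClpD-OE, against 46.5 and 49.7 in WT. The groups did not overlap (log2 fold change 0.42, SE 0.0951, edgeR adjusted p = 0.0616, DESeq2 adjusted p = 0.0794). FER4 shares 118 bases with AT2G40290, a translation initiation factor gene on the same strand with 2134 and 2075 counts in ClpD-OE, against 1170 and 1286 in WT. FER2 (AT3G11050), a ferritin known from seeds and not among the 10, had 32 and 12 counts in ClpD-OE, against 22 and 28 in WT.

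By FPKM within each library, FER1 made up 65.9% and 62.7% of ferritin transcripts in ClpD-OE, against 83.2% and 79.7% in WT. FER3 made up 22.5% and 23.5% in ClpD-OE, against 10.9% and 11.6% in WT, and FER4 11.4% and 13.7% in ClpD-OE, against 5.71% and 8.501% in WT. The ratio of FER1 to FER3 was 2.93 and 2.66 in ClpD-OE, against 7.61 and 6.88 in WT, with no overlap between groups. The ratio of FER3 to FER4 was 1.98 and 1.72 in ClpD-OE, against 1.92 and 1.36 in WT, and overlapped. The summed ferritin FPKM was 458 and 427 in ClpD-OE, against 589 and 439 in WT. These sums overlapped, with WT replicate 2 between the ClpD-OE libraries. They too are on the FPKM scale, and the overlap cannot be carried over to the TMM scale of the fold changes.

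The coding sequence of FER3 was 80.0% identical to that of FER4 and 72.2% to that of FER1, and FER1 and FER4 were 72.6% identical. The longest run that FER3 and FER4 share was 32 bases.

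**Figure D3:**
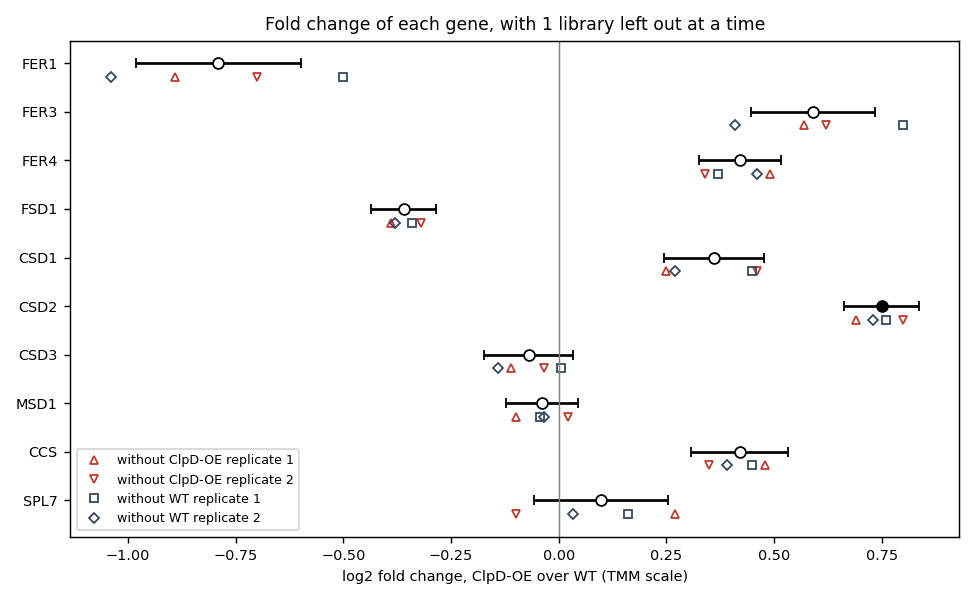
Log2 fold change of ClpD-OE over WT for each of the 10 genes, with the SE as bars, a filled circle where the gene was called and an open circle where it was not, and small symbols for the value with 1 library left out. CSD2 alone is filled, at 0.75, and the values of CSD3, MSD1 and SPL7 lie on both sides of 0 across the libraries left out.

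Per length, in the authors' FPKM, the order of the 10 genes in ClpD-OE was FSD1 (1409 ± 40.1), FER1 (285 ± 24.1), MSD1 (168 ± 8.48), FER3 (102 ± 1.81), CSD2 (63.8 ± 2.78), CSD1 (63.4 ± 5.84), FER4 (55.3 ± 4.61), CSD3 (43.2 ± 1.10), CCS (16.8 ± 1.26) and SPL7 (7.39 ± 1.52), as mean ± SD of 2 libraries. CSD2 and CSD1 overlapped there, and no other neighbours did. In WT, FSD1 had 1541 ± 10.9 FPKM, FER1 419.9 ± 98.7, MSD1 148 ± 4.68 and FER3 57.6 ± 9.54. They were followed by CSD1 (42.3 ± 2.44), CSD3 (40.2 ± 3.26), FER4 (35.5 ± 2.65), CSD2 (32.5 ± 0.486), CCS (10.7 ± 0.0481) and SPL7 (5.89 ± 0.155), with overlap between CSD1 and CSD3. The place of CSD2 was the 5th in ClpD-OE and the 8th in WT.

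Copper homeostasis genes other than the 10 were mostly not called. Of 27 tested, 3 were lower, against 3.91% of all tested genes, and 0 higher, against 4.29%. Their median log2 fold change was -0.0522 (0.17 with library totals), with 12 values above 0 and 15 below. The 3 called lower were PETE1, PETE2 and COPT2. PETE1 and PETE2 encode plastocyanin, the copper protein of photosynthetic electron transport. COPT2 encodes a copper importer induced by copper scarcity. PETE2 had 2670.0 and 2767 CPM in ClpD-OE, against 4485 and 4199.9 in WT (log2 fold change -0.68, SE 0.0768, edgeR adjusted p = 0.0213). PETE1 fell by 0.74 on the log2 scale (SE 0.0960, edgeR adjusted p = 0.0242). COPT2 (AT3G46900) had 4.04 and 3.35 CPM in ClpD-OE, against 8.43 and 6.88 in WT (log2 fold change -1.05, SE 0.195, edgeR adjusted p = 0.0416). Leaving out WT replicate 1 ended that call (edgeR adjusted p = 0.124). CCH, a copper chaperone gene, did not pass (log2 fold change -0.22, SE 0.0847, edgeR adjusted p = 0.165). ZIP2, FRO4 and CITF1, also of this list, had log2 fold changes above 0 and did not pass. The values were 1.43, 1.07 and 0.25 (edgeR adjusted p = 0.183, 0.168 and 0.724). Counts were low, with 50 and 101 for ZIP2 in ClpD-OE, against 11 and 34 in WT. FRO4 had 25 and 28 counts in ClpD-OE, against 7 and 13 in WT. With library totals 3 genes of this list were called higher and 3 lower, and 17.3% of all tested genes were called.

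Of 33 tested genes of iron storage, transport and regulation, 3 were called lower and 0 higher, with a median log2 fold change of -0.19 (0.0335 with library totals). Over all tested genes 8.19% were called, 3.91% lower and 4.29% higher. IMA3 (AT2G30766), which encodes a peptide that promotes iron uptake, had 17 and 27 counts in ClpD-OE, against 93 and 68 in WT (log2 fold change -2.21, SE 0.357, edgeR adjusted p = 0.0321). OPT3, a phloem iron transporter gene, fell by 0.65 (SE 0.0995, edgeR adjusted p = 0.0302), and NAS4, a nicotianamine synthase gene, by 0.71 (SE 0.143, edgeR adjusted p = 0.0477) on the log2 scale. ILR3, a factor that acts on ferritin genes, and BTS, a ubiquitin ligase of the iron response, had log2 fold changes of -0.13 and -0.19 and did not pass (edgeR adjusted p = 0.390 and 0.279). With 1 library left out ILR3 lay between -0.19 and -0.0753, the value without ClpD-OE replicate 2 being closest to 0, and BTS between -0.29 without WT replicate 1 and -0.0929 without WT replicate 2. NAS4 was not called by DESeq2 (adjusted p = 0.0662), nor by edgeR with library totals, with no filter on low counts (adjusted p = 0.0517) or without any 1 of the 4 libraries. Without WT replicate 1 edgeR called 0 of the 33, against 2.77% of all genes, with 9 at an unadjusted p under 0.05, against 20.2% of all genes. Without WT replicate 2 it called 6 of the 33, against 14.6% of all genes. IRT1, BHLH38, BHLH39, BHLH100 and BHLH101, genes of iron uptake and its regulation, had at most 5 counts in any library and were not tested.

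The hydrogen peroxide that SODs make is removed by catalases and peroxidases. Of 13 tested genes for such enzymes 5 were called lower, against 3.91% of all tested genes, and 0 higher, against 4.29%. Their median log2 fold change was -0.29 (-0.0655 with library totals). CAT2, the main leaf catalase gene, had 645 and 612 CPM in ClpD-OE, against 1306 and 1029 in WT (log2 fold change -0.89, SE 0.130, edgeR adjusted p = 0.0277). The cytosolic ascorbate peroxidase gene APX1 fell by 0.66 on the log2 scale (SE 0.0928, edgeR adjusted p = 0.0268). The plastid peroxidase genes GPX1 and GPX7 fell by 0.52 and 1.10 (SE 0.0784 and 0.169, edgeR adjusted p = 0.0289 and 0.0302). The remaining one was the thylakoid peroxidase gene TAPX (log2 fold change -0.41, SE 0.0790, edgeR adjusted p = 0.0434), named after its value was seen. Without WT replicate 1, CAT2 was the one called, and with library totals 3 were called lower. Without ClpD-OE replicate 1 or 2 edgeR called 0 genes in each of these lists, as in the whole table.

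**Figure D4:**
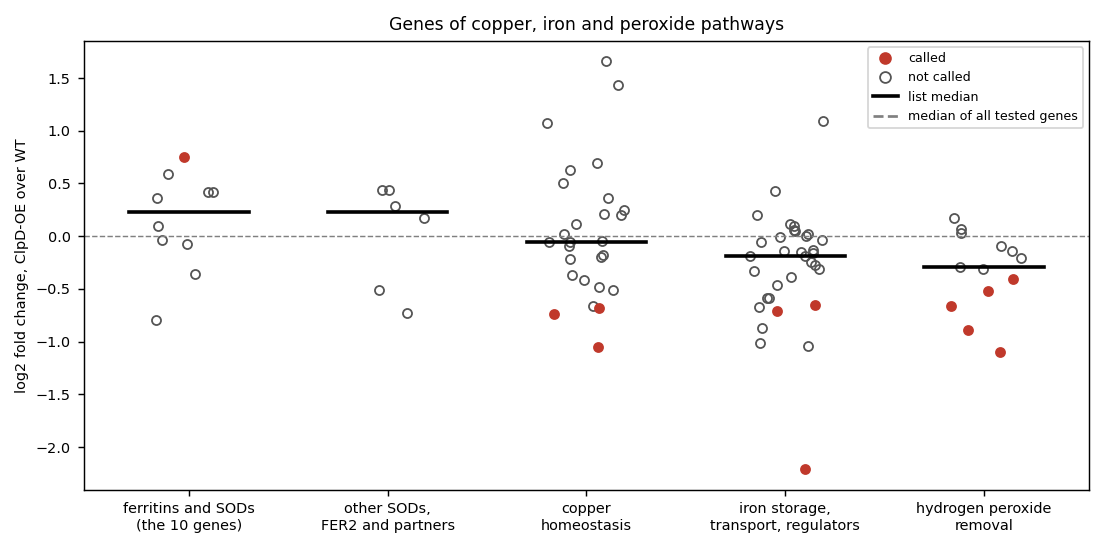
Log2 fold change of ClpD-OE over WT for each tested gene of 5 lists, with filled points for called genes, open points for the others, a bar at the median of each list and a dashed line at the median of all tested genes. The called copper, iron and peroxide genes all lie below 0, and the called SOD gene, CSD2, lies above it.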

How the data were processed

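Poly(A) RNA of whole seedlings was selected with oligo(dT) beads and sequenced on an Illumina HiSeq instrument, per the labels' protocols. The submitters' processing notes name the build TAIR10 and DESeq2, RSEM, StringTie 1.3.1, HISAT2, Bowtie2 2.2.8 and fastp 0.18.0, without their roles. The authors deposited 1 table with estimated counts per gene and library, not normalized, and 0 of its values changed on rounding. Because RSEM is named, these deposited values were treated as estimated (expected) counts. The authors' FPKM values are per length and depth, without TMM, and served for levels between genes, sums over genes and ratios within a library. The deposited log2 fold changes, p-values and adjusted p-values are the authors', and the file headers name no test. For the genes given here those log2 fold changes match ratios of mean FPKM, so they are not on the TMM scale.

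Groups came from the genotype labels, and the replicates of each group differed by more than sampling noise (chi-square per degree of freedom 10.2 in ClpD-OE and 18.6 in WT). The test was that of edgeR 4.0.16 under R 4.3.3 (TMM, filterByExpr, glmQLFit and glmQLFTest at their defaults, genotype as the only term), with Benjamini-Hochberg adjustment over 18940 genes. The SE is the log2 fold change divided by the square root of F. The edgeR test was first tried on simulated data. DESeq2 1.42.0, other scalings, filters and fits, the replicate block and each library left out were the alternatives. The members and lists were chosen with earlier results of these data known. The text names all 10 genes, from each list the called genes with the smallest p up to 4, and FER2, FSD2, FSD3, COPT2, CCH, PETE2, ILR3 and BTS. COX5B-1, TAPX, ZIP2, FRO4, CITF1, the shoot and root markers, IRT1 and the BHLH genes with few counts were named outside this rule. Sequences and coordinates are from RefSeq's TAIR10.1 by locus tag, which matched all 31346 loci. The upstream window of FER4 is not reported here.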

Additional observations from a re-analysis of the deposited data

How the results depend on the processing

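The count of the 10 genes called was 1, against 8.19% of all tested genes. It was 5 with library totals (3276 of all genes, 17.3%), 2 with a minimum of 1 CPM in 2 libraries (8.65% of all genes) and 4 with DESeq2 (11.3%). With the replicate number as a block it was 6 (3513 of all genes, 18.5%). In the copper, iron, peroxide and relative lists the block called 26, against 11. The labels do not say that a number marks a shared batch. Across genes, replicate 2 minus replicate 1 correlated at 0.265 between groups. With 1 library left out the count lay between 0 and 3, that over all genes between 0 and 2781, against 1552, and that in the lists between 0 and 18, and the cause was not tested.

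With library totals FER3, FER4, CSD1 and CCS were called at log2 fold changes of 0.82, 0.64, 0.59 and 0.64, and CSD3 and MSD1 turned to 0.16 and 0.19. CCH, ILR3 and BTS turned to 0.00175, 0.0958 and 0.0323. The minimum of 1 CPM called FSD1 (-0.35). DESeq2 called FER1, FER3 and FSD1 (-0.79, 0.59 and -0.36). The replicate block called FER1, FER3, FER4, FSD1 and CSD1 (-0.77, 0.60, 0.41, -0.36 and 0.36). Leaving out 1 library gave ranges of -1.04 to -0.50 for FER1, 0.41 to 0.80 for FER3, -0.39 to -0.32 for FSD1 and 0.69 to 0.80 for CSD2. The ranges were -0.14 to 0.00426 for CSD3, -0.0998 to 0.0214 for MSD1 and -0.0980 to 0.27 for SPL7. FER2, at -0.51, ranged from -1.37 to 0.0179, above 0 without ClpD-OE replicate 2. CSD2 was called in each of the 7 other settings with all 4 libraries, and the order of the 10 genes within ClpD-OE and within WT was the same in CPM per kilobase of transcript. With 2 libraries per group, a p that misses the threshold does not show that a gene did not differ.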
